A study of Mus musculus with 6 samples.

Results

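The TAM receptor tyrosine kinases Mertk, Axl and Tyro3 and their bridging ligands Gas6 and Pros1 were followed through single-cell RNA counts of CD169-lineage cells of the mouse lymph node. These 5 genes, of the 32287 in the deposited count matrix, were chosen by name for this system, not by their values. Mertk and Axl are also among the genes that the study used to describe its putative tingible body macrophages (TBMs) in these same cells, so their presence in such cells is not independent evidence.

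TAM receptors let a phagocyte recognise a dying cell. Gas6 and Protein S, the product of Pros1, bind phosphatidylserine on the apoptotic surface through a vitamin K-dependent Gla domain and bind the receptor on the phagocyte through their other end. MERTK is best known for engulfment of apoptotic cells by resting macrophages, AXL is induced by interferon and prefers Gas6, and receptor activation restrains inflammatory signalling. In germinal centres, TBMs are the macrophages that clear dying B cells.

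The cells came from inguinal lymph nodes of Cd169Cre/+.Tdtomatofl/fl (CD169Tom) mice on a C57BL/6J background, over 6 weeks old and of both sexes, in which Cre under the control of Siglec1, the CD169 gene, switches on a red fluorescent protein permanently. The label therefore marks any cell, or descendant of a cell, that has at some time transcribed Siglec1, and not CD169 at harvest. There were 2 unimmunized mice and 2 mice immunized with hen egg lysozyme and harvested 9 days later, and all 4 carried the same alleles. The paper's general methods describe lysozyme joined to an ovalbumin peptide, in Sigma adjuvant, for recipients of transferred SWHEL B cells and OT-II T cells. Its section on the sequenced mice does not restate these details. Live Tomato-positive, CD11b-high cells were sorted, tagged with 1 antibody hashtag per mouse, pooled, and run in 2 droplet captures. No antibody in the panel was directed against a TAM receptor or ligand, so every value here is RNA.

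After filtering, 12139 cells had a single mouse of origin, with a median of 5877 and 6280 unique molecular identifiers (UMIs, each one an RNA molecule counted) per cell in the unimmunized mice and 9674 and 12727.5 in the immunized mice. Cells were placed into 15 classes by marker genes that include none of the 5 members, and 6580 cells were placed; the other 5559 were left ungated. Lymphoid cells (623 with alpha-beta T, 263 with NK, 287 with B and 200 with gamma-delta T markers) were present despite the sort. The levels below (CPM) are UMIs of a gene per 1000000 UMIs of a mouse's summed cells in a class. TBM-like cells, which are C1q macrophages with a UMI of at least 3 of the 7 genes Pf4, Itga9, Ccl12, C3ar1, Ccl7, Stab1 and Tmem37, numbered 30 and 102 in the immunized mice but 4 and 3 in the unimmunized mice, so comparisons with them rest on the immunized mice. Libraries of under 10 cells were not tested. Medullary sinus macrophage (MSM)-like barcodes were shallow, at a median of 1715 to 2487.5 UMIs per cell across mice.

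The 5 genes differed greatly in how often they were seen. Over all kept cells there were 9134 UMIs of Axl, 1057 of Mertk, 869 of Pros1, 87 of Gas6 and only 26 of Tyro3. Of the 50 summed libraries with at least 10 cells, Axl had a UMI in 46, Pros1 in 35, Mertk in 22, Gas6 in 18 and Tyro3 in 8. These totals also depend on how well each transcript's 3' end is captured, so they rank the evidence and not the abundance of the genes. In these sums of many cells, fewer expressing cells and less RNA per cell cannot be told apart.

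**Figure D1:**
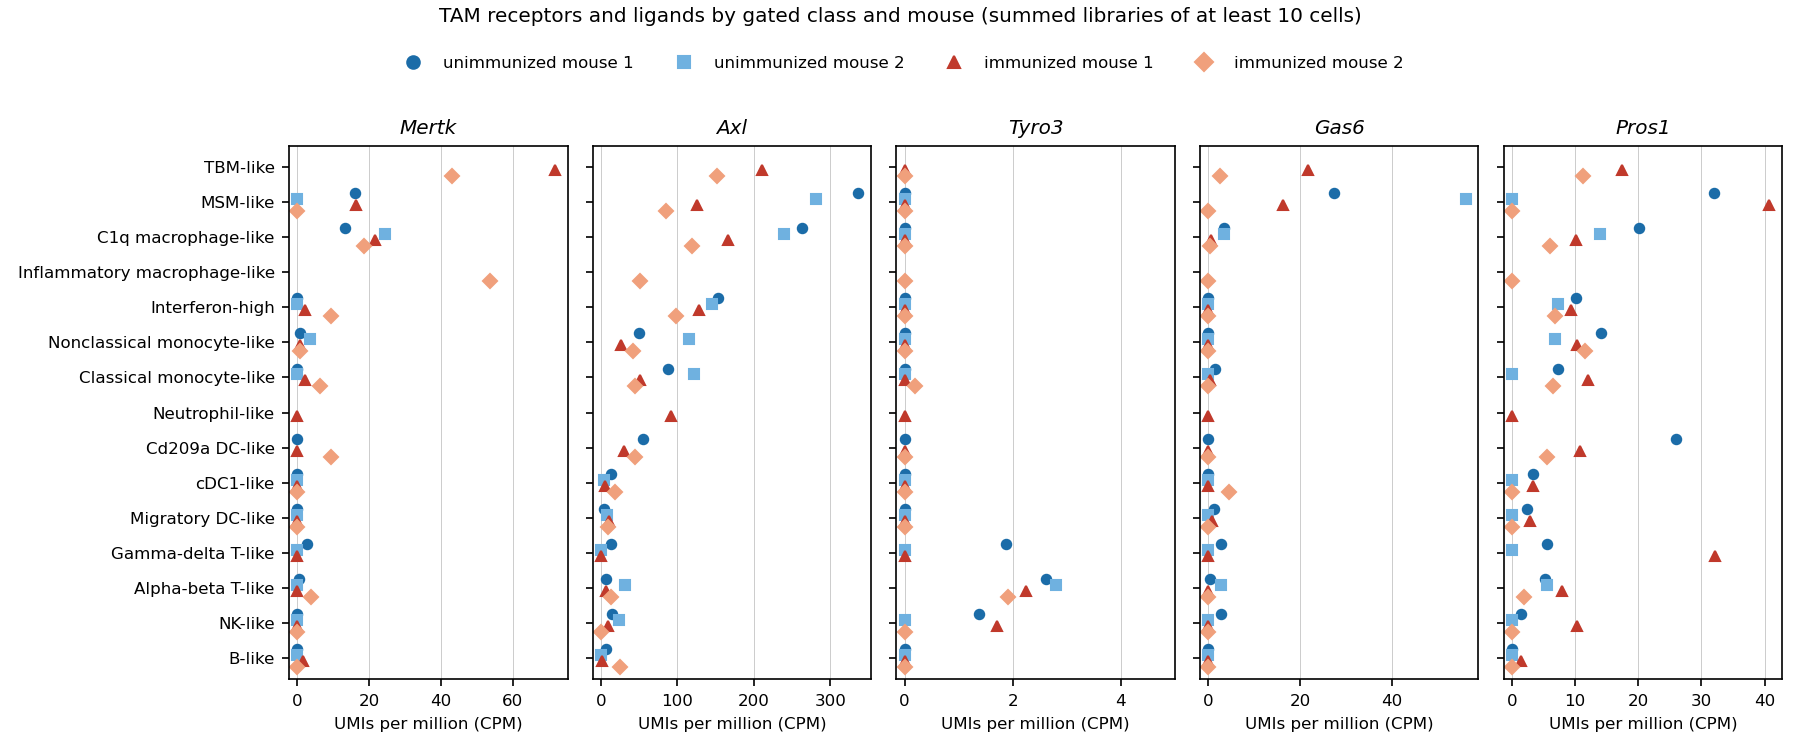
CPM (horizontal axes, linear and separate for each gene) of the 3 receptors and 2 ligands in 15 gated classes (rows), with 1 point per mouse and no point for libraries under 10 cells. Mertk has its highest points in TBM-like and inflammatory macrophage-like cells, and Axl in MSM-like and C1q macrophage-like cells. Tyro3 has points above 0 mainly in T-like and NK-like cells, and Gas6 has its highest points in MSM-like cells, at 27.5 and 56.1 CPM in the unimmunized mice.

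Mertk (GRCm38 chromosome 2, 128698956 to 128802894, plus strand) was mainly a macrophage transcript among the gated classes. In C1q macrophage-like cells outside the TBM-like gate it was at 13.4 and 24.3 CPM in unimmunized mice 1 and 2, and at 21.7 and 18.7 CPM in immunized mice 1 and 2. In TBM-like cells it was at 71.7 CPM (33 UMIs) in immunized mouse 1 and 43.0 CPM (69 UMIs) in immunized mouse 2. Both TBM-like libraries were thus above all 4 of the other C1q macrophage libraries. How many of all genes separated in this way was not counted. The 7 TBM-like cells of the unimmunized mice held 6 UMIs, at 64.9 CPM (95% exact Poisson interval 23.8 to 141.3, which, like all such intervals here, covers counting error only).

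The difference between TBM-like and other C1q macrophages did not pass the test across all genes. Mertk was 1.31 higher on the log2 scale (SE 0.47) with an adjusted p of 0.692 by the quasi-likelihood test of edgeR, adjusted over all genes by Benjamini-Hochberg (unadjusted p = 0.00944), where 0.219% of the 10935 genes tested were called, 0.201% as higher. Its estimate was above 0 in all 18 alternative settings, from 0.90 to 1.75, and it was called in 0 of them. Of the 4 members tested, 1 was called, Gas6, described with the ligands. Axl differed by 0.18 (SE 0.33, adjusted p = 1 by the same edgeR test) and Pros1 by 0.62 (SE 0.51, adjusted p = 1 by the same edgeR test).

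In the immunized mice the level of Mertk stepped with the number of TBM genes seen in a cell, which is given as a description. In immunized mouse 1 it was 13.4 CPM in C1q macrophages with no TBM gene, 34.0 with 1, 38.7 with 2 and 71.7 with 3 or more. In immunized mouse 2 the values were 11.3, 23.4, 46.2 and 43.0 CPM. The lowest value in each immunized mouse was that of cells with no TBM gene. The unimmunized mice, with 1 to 5 UMIs at each step, gave no such order. Mouse 1 had 15.0, 10.1, 14.7 and 93.1 CPM and mouse 2 had 5.4, 26.7, 154.1 and 25.8 CPM. Median depth over these steps was 11071.5, 9955, 10956 and 14791 UMIs per cell in immunized mouse 1 and 14402, 15483.5, 16169 and 15401 in immunized mouse 2. In the immunized mice Axl moved less in proportion over the same steps. It was at 144.1 CPM with none and 210.7 CPM with 3 or more in immunized mouse 1. In immunized mouse 2 it was at 111.1 and 151.4 CPM. In unimmunized mouse 1 Axl was at 186.3, 344.5, 396.5 and 428.4 CPM over the steps. In unimmunized mouse 2 it was at 182.1, 253.4, 616.4 and 464.6 CPM. The last step held 4 cells in unimmunized mouse 1 and 3 in unimmunized mouse 2.

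**Figure D2:**
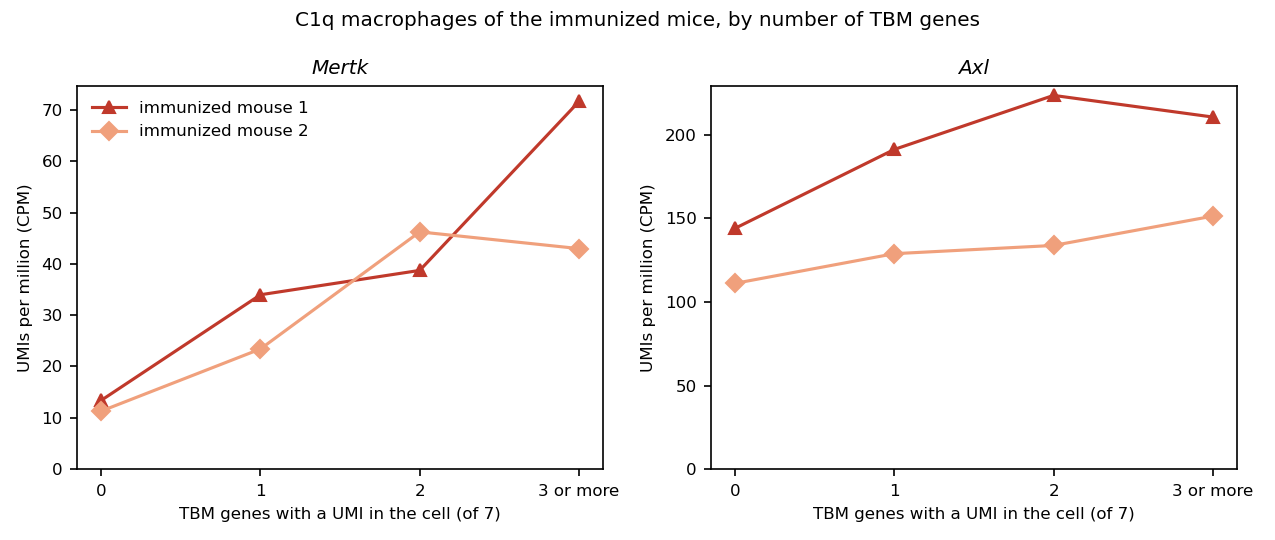
CPM of Mertk (left) and Axl (right) in C1q macrophages of the 2 immunized mice, grouped by how many of the 7 TBM genes have a UMI in the cell (horizontal axis), with 1 line per mouse. Mertk is lowest, at 13.4 and 11.3 CPM, in cells with no TBM gene, and reaches 71.7 and 43.0 CPM in cells with 3 or more.

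Against monocytes, C1q macrophages carried more Mertk and more Axl. Pooled over the 4 mice, Mertk was at 21.3 CPM (609 UMIs) in C1q macrophages and 2.99 CPM (52 UMIs) in classical and nonclassical monocyte-like cells, a ratio of 7.13. The edgeR fit, which weights classes and conditions equally, gave a log2 difference of 4.80 (SE 0.68, adjusted p = 9.2e-06 with Benjamini-Hochberg adjustment). Its size is uncertain, since Mertk had no UMI in the classical cells of the unimmunized mice. The pooled ratio depends on the mix of mice, with 1478 of the 2119 C1q macrophages from immunized mouse 2. By mouse, C1q macrophages and monocytes had 19.9 and 0.51 CPM, then 24.5 and 2.30 CPM, in unimmunized mice 1 and 2 (1 monocyte UMI each). Immunized mice 1 and 2 had 26.0 and 1.82 CPM, then 20.4 and 5.18 CPM. The call was lost only without unimmunized mouse 1 (adjusted p = 0.0611). Of the 4 members tested, 3 were higher in C1q macrophages (Mertk, Axl and Gas6) beside 8.14% of all genes called, 3.73% as higher.

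Inside the monocyte classes Mertk was not uniform. In classical monocyte-like cells it had 13 UMIs (2.2 CPM) in immunized mouse 1 and 34 UMIs (6.3 CPM) in immunized mouse 2. Interferon-high cells were gated on Rsad2, Cxcl10, Cmpk2 and Ifit genes and on no monocyte gene, and are only grouped here with the monocyte classes. In immunized mice 1 and 2 they held 4 UMIs (2.2 CPM) and 23 UMIs (9.3 CPM). No UMI was seen in either class of either unimmunized mouse. In classical cells 0 of 824220 UMIs has an upper limit of 4.48 CPM by the 95% exact Poisson interval. That lies inside the interval of the pooled immunized mice, 4.20 CPM (95% exact Poisson interval 3.08 to 5.58). In interferon-high cells 0 of 729746 has an upper limit of 5.06 CPM by the same interval. That also lies inside the interval of the pooled immunized mice, 6.30 CPM (4.15 to 9.17). Immunized mouse 1 alone, at 2.2 CPM in both classes, was below both limits. Nonclassical monocyte-like cells were low in every mouse, at 0.73 to 3.39 CPM from 1 or 2 UMIs each.

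Mertk was nearly absent from dendritic and lymphoid cells. Dendritic cells held 5 UMIs in 7757072 (0.645 CPM), all of them in Cd209a DC-like cells of immunized mouse 2, and lymphoid cells held 8 UMIs in 8840497 (0.905 CPM). The pooled level in C1q macrophages was 33.1 times that in dendritic cells and 23.6 times that in lymphoid cells. Both differences passed the edgeR test (adjusted p = 1.4e-07 and 1.8e-07) and in 18 of 18 alternative settings. No Mertk UMI was seen in 4 of the 15 classes, the neutrophil-like, cDC1-like, migratory DC-like and NK-like cells.

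A high Mertk level was also found away from the C1q genes. Inflammatory macrophage-like cells, with Nos2, Acod1, Arg1 and related markers, came almost wholly from immunized mouse 2 (70 of 73 cells) and held 60 Mertk UMIs there, 53.5 CPM. The C1q genes were at 2.62% of their level in the C1q macrophage-like cells of that mouse, while Mertk was at 287%. In the classical monocyte-like cells of immunized mouse 2, C1q was at 1.53% and Mertk at 33.9% of the C1q macrophage-like level. In immunized mouse 1 the same figures were 1.52% and 10.3%, and in its interferon-high cells 3.80% and 10.2%. In each of these 4 libraries the Mertk percentage was above the C1q percentage. The C1q genes are gate markers of the reference class and Mertk is not, so low C1q percentages elsewhere are partly set by the gate. In cDC1-like, migratory DC-like and NK-like cells of both immunized mice Mertk had no UMI, with C1q at 0.497% to 2.29%.

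**Figure D3:**
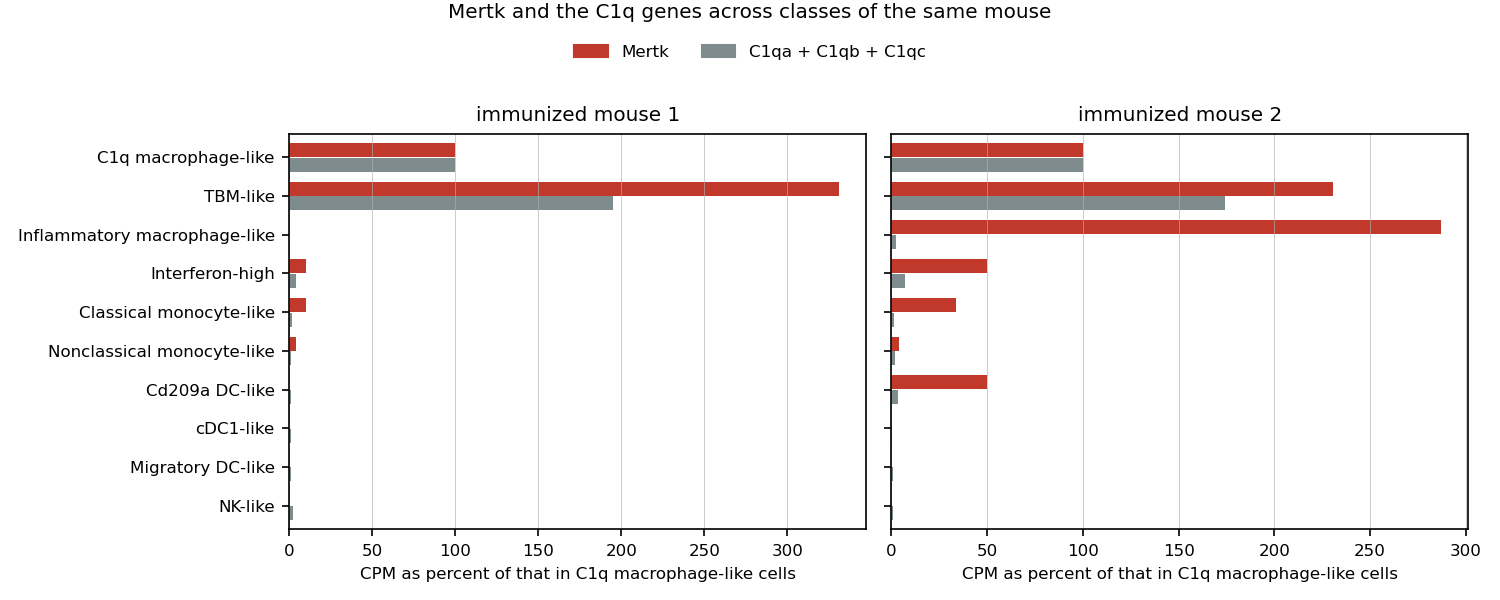
CPM of Mertk (red bars) and of C1qa, C1qb and C1qc summed (grey bars) in classes of immunized mice 1 (left) and 2 (right), as a percentage of the same mouse's C1q macrophage-like level, which is 100 for both; libraries under 10 cells have no bar. The inflammatory macrophage-like cells of mouse 2 show Mertk at 287% beside C1q at 2.62%.

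Axl (chromosome 7, 25757273 to 25788705, minus strand) reached more classes than Mertk, with a UMI in all 15. MSM-like cells had 336.4 and 280.6 CPM in unimmunized mice 1 and 2, and 126.2 and 85.3 CPM (31 and 2 UMIs) in immunized mice 1 and 2. C1q macrophage-like cells had 262.4 and 239.9 CPM, then 165.5 and 118.5 CPM. Depth moved with the MSM-like values: of the 212 barcodes of unimmunized mouse 1, the 137 under 2000 UMIs were at 426.1 CPM and the other 75 at 259.5 CPM, and of the 84 of immunized mouse 1, the 26 under 2000 UMIs were at 176.8 CPM and the other 58 at 116.5 CPM. Unimmunized mouse 1 was the higher at either depth. TBM-like cells of the immunized mice had 210.7 and 151.4 CPM. The mean over mice was 207.1 ± 120.4 CPM (SD, n = 4) in MSM-like cells and 196.6 ± 66.5 CPM (SD, n = 4) in C1q macrophage-like cells, neighbours in the order of classes whose ranges overlapped.

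Interferon-high and monocyte classes came next, with means of 131.3 ± 24.8 CPM in interferon-high, 76.3 ± 35.8 CPM in classical and 58.2 ± 39.4 CPM in nonclassical cells (SD, n = 4 each). Interferon-high cells had 153.6 and 145.7 CPM in unimmunized mice 1 and 2, then 128.4 and 97.7 CPM in immunized mice 1 and 2. Classical monocyte-like cells had 87.6 and 121.9 CPM, then 50.7 and 45.0 CPM. Nonclassical monocyte-like cells had 49.6 and 115.4 CPM, then 25.7 and 42.2 CPM. Classical and nonclassical values overlapped, while each mouse's interferon-high cells exceeded its classical and its nonclassical cells.

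Cd209a DC-like cells had 55.6 CPM in unimmunized mouse 1 and 30.2 and 44.8 CPM in immunized mice 1 and 2, each above the nonclassical cells of the same mouse (49.6, 25.7 and 42.2 CPM), and unimmunized mouse 2 had fewer than 10 such cells. The other dendritic and the lymphoid classes had means of at most 14.5 CPM. In cDC1-like and migratory DC-like cells Axl was between 3.7 and 18.0 CPM. Alpha-beta T-like cells had 6.8 to 30.9 CPM, and NK-like and B-like cells had 0 to 25.4 CPM, with overlapping ranges among these classes. With likely doublets removed, B-like cells had 0 to 1.54 CPM in the immunized and 0 to 6.14 CPM in the unimmunized mice. Alpha-beta T-like cells then had 0 to 7.03 and 6.72 to 28.5 CPM, and NK-like cells 0 to 3.69 and 9.97 to 14.5 CPM.

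Axl was higher in C1q macrophages than in monocytes by 1.77 on the log2 scale (SE 0.21, adjusted p = 4.2e-08 by edgeR, Benjamini-Hochberg), and the pooled levels were 134.2 and 47.8 CPM. In dendritic cells it was lower than in C1q macrophages by 3.69 on that scale (log2 difference -3.69, SE 0.25, edgeR adjusted p = 4.2e-15), at 19.3 CPM pooled. Lymphoid cells had 9.39 CPM pooled, a log2 difference of -5.42 (SE 0.31, edgeR adjusted p = 4.1e-18). These 3 calls held in 18 of 18 alternative settings. MSM-like and C1q macrophages differed by -0.17 (SE 0.30, edgeR adjusted p = 0.752). The pooled levels ran the other way, at 256.2 and 134.2 CPM, where 1376 of the 1987 C1q macrophage-like cells came from immunized mouse 2 and 212 of the 320 MSM-like cells from unimmunized mouse 1.

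All 4 tested members were lower in dendritic cells than in C1q macrophages, where 22.2% of all genes were called (13.3% as lower), and all 4 were lower in lymphoid cells, where 34.8% were called (24.0% as lower). With backgrounds this wide a call of itself says little, and the sizes carry the comparison. The median of all genes was -0.04 for dendritic and -0.21 for lymphoid cells on the log2 scale.

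Interferon is a known inducer of Axl, and interferon-high cells were compared with classical monocytes for that reason. Axl was higher in the interferon-high cells in 4 of 4 mice, by 0.97 on the log2 scale (SE 0.27). The share of all genes higher in every mouse was not counted. The edgeR test with Benjamini-Hochberg adjustment gave an adjusted p of 0.0537, just short of the threshold of 0.05, beside 1.81% of all genes called. With the mouse as a block it was 0.0056 and with the mouse as a random effect (limma-voom) 0.0674, and it was called in 8 of 18 alternatives, over which the adjusted p ran from 0.000716 to 0.723. None of the 4 members tested was called in the fit without the block, 1 had an unadjusted p under 0.05 (Axl), and DESeq2 and limma-voom called 0. In the fit without the block, 1049 of all 10935 genes had an unadjusted p under 0.05. For Mertk the fit without the block had no usable estimate (SE 826).

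Genes whose class means followed Axl most closely over the 15 classes, among 7724 candidates, were P2ry13, an ADP receptor (Pearson r = 0.956), Rin2, a Rab5 exchange factor (0.926), Cd300ld of the CD300 family (0.921), Fcgr1, the high-affinity IgG receptor CD64 (0.921), and Slc45a4, a solute carrier (0.918). Mertk followed Axl at r = 0.588. These are correlations over classes drawn from the same 4 mice and are given as descriptions.

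The stretch of 250 bases before the start of Axl and of Mertk is shown because these 2 receptors had the clearest class patterns. Sequences are from RefSeq (GRCm38.p6, 5 of 5 members matched), written 5' to 3' on the gene's own strand. They are Axl at chr7:25788734-25788983 (minus strand) and Mertk at chr2:128698665-128698914 (plus strand), with capitals for a motif match.
Axl: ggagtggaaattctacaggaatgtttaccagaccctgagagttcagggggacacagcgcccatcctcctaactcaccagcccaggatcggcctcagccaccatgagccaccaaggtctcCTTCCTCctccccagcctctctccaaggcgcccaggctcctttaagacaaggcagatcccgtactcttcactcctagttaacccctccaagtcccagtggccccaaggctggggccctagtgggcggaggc
Mertk: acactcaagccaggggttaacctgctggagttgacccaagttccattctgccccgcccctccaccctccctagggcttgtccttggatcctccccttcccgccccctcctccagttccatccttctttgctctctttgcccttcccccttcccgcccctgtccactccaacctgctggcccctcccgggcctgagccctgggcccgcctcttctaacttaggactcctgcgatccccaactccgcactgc
Both strands were searched for 4 motifs, the core of the interferon-stimulated response element, the GAS element TTCNNNGAA, the nuclear receptor site AGGTCA and the PU.1-type site GAGGAAG. Axl holds 1 match, the PU.1-type site at positions -131 to -125 from the start, read on the opposite strand and so shown as CTTCCTC. Mertk holds 0. Of 32851 windows of this length, 10.6% hold the PU.1-type letters, 2.98% the interferon core, 7.02% the GAS letters and 14.0% the nuclear receptor letters. A match of this kind is a run of letters and not a shown binding site.

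Tyro3 (chromosome 2, 119797733 to 119818104, plus strand) was not seen in any gated macrophage class at this depth. In alpha-beta T-like cells it had 6, 1, 2 and 1 UMIs in unimmunized mice 1 and 2 and immunized mice 1 and 2, which is 2.6, 2.8, 2.3 and 1.9 CPM. Gamma-delta T-like and NK-like cells had 2 UMIs each, and classical monocyte-like cells had 1. It was at 0 in 11 of 15 classes. In the 1987 C1q macrophage-like cells, 0 of 26472470 UMIs allows a level of up to 0.139 CPM, below the 2.47 CPM (95% exact Poisson interval 1.18 to 4.54) of alpha-beta T-like cells. Tyro3 was too sparse for the low-count filter and was not tested.

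Of the ligands, Gas6 (chromosome 8, 13465374 to 13494490, minus strand) was rare and, among gated cells, gathered in 2 macrophage classes. Ungated cells held 12 and 1 Gas6 UMIs in unimmunized mice 1 and 2, and 11 and 5 in immunized mice 1 and 2. These are not placed in a class. MSM-like cells held 12 and 2 UMIs (27.5 and 56.1 CPM) in unimmunized mice 1 and 2, and 4 and 0 UMIs (16.3 and 0 CPM) in immunized mice 1 and 2. TBM-like cells held 10 and 4 UMIs (21.7 and 2.5 CPM) in immunized mice 1 and 2. All 1987 other C1q macrophage-like cells together held 12 UMIs, 0.453 CPM (95% exact Poisson interval 0.234 to 0.792). The 139 TBM-like cells thus held more Gas6 UMIs (15) than these 1987 cells.

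Gas6 was higher in TBM-like than in other C1q macrophages, with an adjusted p of 0.0444 by edgeR, Benjamini-Hochberg, and the pooled levels were 6.95 and 0.453 CPM. The call held in 7 of 17 alternatives, its direction in all 17. It was lost without immunized mouse 1 and without either unimmunized mouse, and with DESeq2 (adjusted p = 1). In MSM-like cells it was higher than in C1q macrophages by 2.85 on the log2 scale (SE 0.84, edgeR adjusted p = 0.0122), where 23.0% of genes were called (7.70% as higher) and Gas6 was the 1 member of 4, and that call held in 10 of 15 alternatives. Without immunized mouse 1 that log2 difference was -0.16, the comparison then resting on few cells.

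The other Gas6 calls were near the threshold. It was higher in C1q macrophages than in monocytes (26 against 3 UMIs, edgeR adjusted p = 0.0317, called in 8 of 17 alternatives), lower in dendritic cells (3 UMIs, edgeR adjusted p = 0.0447, 7 of 17) and lower in lymphoid cells (7 UMIs, edgeR adjusted p = 0.0405, 6 of 17). In the immunized mice these fits give TBM-like cells as much weight as all other C1q macrophages. In the unimmunized mice the C1q side has no TBM-like library. Pooled by cells, the level was 0.911 CPM in C1q macrophages and 0.792 CPM in lymphoid cells, a ratio of 1.15.

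Markers of other lymph node cells were read beside Gas6 in the MSM-like class, from lists written after the data were seen. Of 8 endothelial markers, 7, 2, 4 and 4 had a UMI in unimmunized mice 1 and 2 and immunized mice 1 and 2, and their summed level was 32.6 to 255.9 CPM, against 8.58 to 21.7 CPM in C1q macrophage-like cells. Unimmunized mouse 1, which held 12 of the 18 Gas6 UMIs of this class, had 38 endothelial UMIs, 13 of them of Cdh5, and immunized mouse 1, with 4 Gas6 UMIs, had 8. Of the endothelial genes, Flt4 was at 0 in all 4 mice. Of 8 stromal markers 1 to 4 had a UMI, at 12.2 to 42.7 CPM, and Col1a1 and Pdgfra were at 0 in all 4 mice. The part of such cells in the Gas6 values was not tested. The exons of Gas6 overlap those of Tmem255b on the other strand, which had 0 UMIs in every class.

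Pros1 (chromosome 16, 62854307 to 62929346, plus strand) was seen in C1q macrophages and in every monocyte class. C1q macrophage-like cells had 20.1 and 13.9 CPM in unimmunized mice 1 and 2 and 10.2 and 6.0 CPM in immunized mice 1 and 2. Nonclassical monocyte-like cells had 14.2, 6.8, 10.4 and 11.6 CPM. Interferon-high cells had 10.1, 7.3, 9.4 and 6.9 CPM. In inflammatory macrophage-like cells Pros1 was at 0 of 1130573 UMIs, which allows up to 3.26 CPM, below the 7.18 CPM pooled in C1q macrophage-like cells. The C1q macrophage and monocyte ranges overlapped, and Pros1 did not pass the test between C1q macrophages and monocytes (log2 difference 0.51, SE 0.37, edgeR adjusted p = 0.511), the pooled levels running the other way at 7.57 and 9.84 CPM.

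Pros1 was lower in dendritic cells (log2 difference -1.51, SE 0.42, adjusted p = 0.00688 by edgeR, Benjamini-Hochberg) and in lymphoid cells (-2.32, SE 0.52, edgeR adjusted p = 0.000424). Pooled by cells the differences were smaller, at 7.57 CPM in C1q macrophages, 6.19 CPM in dendritic and 4.41 CPM in lymphoid cells, ratios of 1.22 and 1.72. The first call held in 15 and the second in 16 of 18 alternatives, and both were lost without unimmunized mouse 1. Within the dendritic side, Cd209a DC-like cells had 26.0, 10.7 and 5.6 CPM in unimmunized mouse 1 and immunized mice 1 and 2, while cDC1-like and migratory DC-like cells had at most 3.34 CPM. In MSM-like cells Pros1 was at 32.0 CPM (14 UMIs) and 40.7 CPM (10 UMIs) in unimmunized mouse 1 and immunized mouse 1. It had no UMI in unimmunized mouse 2 and immunized mouse 2, whose few cells allow up to 103.5 and 157.3 CPM. The difference of 1.12 (SE 0.49) from C1q macrophages had an edgeR adjusted p of 0.0927. Over the 15 classes the genes most like Pros1 were Arhgap39 (r = 0.805), Abcg3, a transporter (0.803), Clec4b1, a lectin (0.782), Zfp90, a zinc finger gene (0.773), and Gm1673 (0.772).

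For immunization, no member passed the test in any of the 10 classes with 2 libraries per condition. Of 40 tests of a member in a class, 0 were called by edgeR and 5 had an unadjusted p under 0.05. Of all 10935 genes, 437 in NK-like to 1312 in interferon-high cells had an unadjusted p under 0.05, with the other classes between. Some of the 40 could call nothing, because neither condition held a UMI. These were Mertk in cDC1-like, migratory DC-like and NK-like cells, and Gas6 in B-like, interferon-high and nonclassical cells. DESeq2 called 0, with 2 under 0.05 before adjustment. A limma-voom fit with the mouse as a random effect called 1, Gas6 in C1q macrophage-like cells, where unimmunized mice 1 and 2 were at 3.3 and 3.5 CPM (2 and 1 UMIs) and immunized mice 1 and 2 at 0.6 and 0.3 CPM (3 and 6 UMIs). That fit also gave Gas6 an unadjusted p under 0.05 in interferon-high cells, where Gas6 had 0 UMIs in all 4 mice. Its Gas6 results therefore cannot be read as a fall in RNA. The share of all genes called was 0.384% in C1q macrophage-like, 0.594% in classical, 1.22% in interferon-high, 0.101% in migratory DC-like, 0.0640% in alpha-beta T-like and 0.00914% in B-like cells, and 0.00% in MSM-like, nonclassical, cDC1-like and NK-like cells. With 2 mice against 2, an exact two-sided permutation test of a single value cannot go below 0.333.

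Axl nevertheless lay lower in plain CPM in the immunized mice across the phagocyte classes. In the values given above, both immunized mice were below both unimmunized mice in C1q macrophage-like, MSM-like, interferon-high, classical and nonclassical cells, and also in NK-like cells. Within a single class this is common: 22.6% of all genes did so in C1q macrophage-like, 15.5% in MSM-like, 20.4% in interferon-high, 22.4% in classical, 23.0% in nonclassical and 16.9% in NK-like cells. In all 5 macrophage and monocyte classes together it was true of 50 of 10935 genes (0.457%), 19 of which were ribosomal protein genes and 1 of which was Axl. In migratory DC-like cells Axl lay the other way, higher in both immunized mice, as did 21.0% of all genes there. The count over 5 classes was chosen after the Axl values were seen, and the 5 classes share the same 4 mice. These CPM and shares are not scaled by the TMM library factors of the edgeR fit. In interferon-high cells those factors were 0.847 and 0.879 in immunized mice 1 and 2, and 0.982 and 1.02 in unimmunized mice 1 and 2. Divided by them, the 128.4 CPM of immunized mouse 1 exceeds the 145.7 CPM of unimmunized mouse 2. The interferon-high groups then overlap, and the pattern over all 5 classes is lost.

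The log2 differences for Axl were -0.64 (SE 0.33) in C1q macrophage-like, -1.37 (SE 0.50) in MSM-like, -0.82 (SE 0.40) in classical, -0.94 (SE 0.42) in nonclassical and -0.22 (SE 0.38) in interferon-high cells. Their adjusted p-values by edgeR, Benjamini-Hochberg ran from 0.529 in classical to 0.897 in interferon-high cells, with 0.555 in C1q macrophage-like cells. Without immunized mouse 1 the difference in C1q macrophage-like cells was -1.02 and was called (edgeR adjusted p = 0.0386). Averaged over the 10 classes, the difference was -0.36 (SE 0.28, edgeR adjusted p = 0.546), beside 6.65% of genes called, and it turned to 0.74 with capture 1 only and to 0.50 (SE 0.99) in cells of at least 5000 UMIs. With capture 2 only, the difference in interferon-high cells turned to 0.38. The difference between C1q macrophages and monocytes in this response was 0.24 (SE 0.44, edgeR adjusted p = 1), with 0.00% of genes called, 297 genes under 0.05 before adjustment and 0 members among them. For Gas6 that difference had no usable estimate (SE 5786).

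Cell depth differed between the conditions. The levels were therefore read again in cells of at least 5000 UMIs, a floor that does not equalize depth. The shares of cells with a UMI were taken at an equal depth of 2000 UMIs. The median C1q macrophage-like cell had 2777 and 9201 UMIs in unimmunized mice 1 and 2, and 10753 and 14895.5 in immunized mice 1 and 2. In cells of at least 5000 UMIs, Axl in C1q macrophage-like cells was still at 224.2 to 250.1 CPM without and 118.5 to 162.5 CPM with immunization. In those cells the groups did not overlap in interferon-high, classical and nonclassical cells either, and no MSM-like comparison was left. After each cell was thinned to 2000 UMIs, a UMI of Axl was found in 43.3% (26 of 60) and 36.7% (11 of 30) of unimmunized and in 27.2% (123 of 453) and 19.8% (270 of 1367) of immunized C1q macrophage-like cells. Unthinned, the order turned, with 51.5% and 61.5% against 63.1% and 64.7%. In B-like cells, with a median depth of 3148 to 6982 UMIs, the thinned shares were 0% in both unimmunized mice and 1.31% and 5.26% in immunized mice 1 and 2. These shares include likely doublets, without which Axl in B-like cells of the immunized mice was at 0 to 1.54 CPM. Thinning left out 41, 9, 18 and 9 C1q macrophage-like cells under 2000 UMIs.

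The separation depended on how cells were given to mice. The values above keep a cell when 80% of its hashtag counts come from 1 hashtag. Under HTODemux, which sets a cutoff for each hashtag and kept 9665 cells, Axl in C1q macrophage-like cells was at 124.1 to 170.8 CPM without and 120.5 to 155.4 CPM with immunization, and the groups overlapped in classical, nonclassical and interferon-high cells too. The cells that only HTODemux gave to unimmunized mice 1 and 2 (387 and 75) had a median of 427 and 397 counts of hashtag 4, that of immunized mouse 2, against 11 and 10 in the cells both rules gave to them. HTODemux also left out 3175 cells that the 80% rule gave to immunized mouse 2. Under HTODemux the log2 difference of Axl in C1q macrophage-like cells was 0.04.

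**Figure D4:**
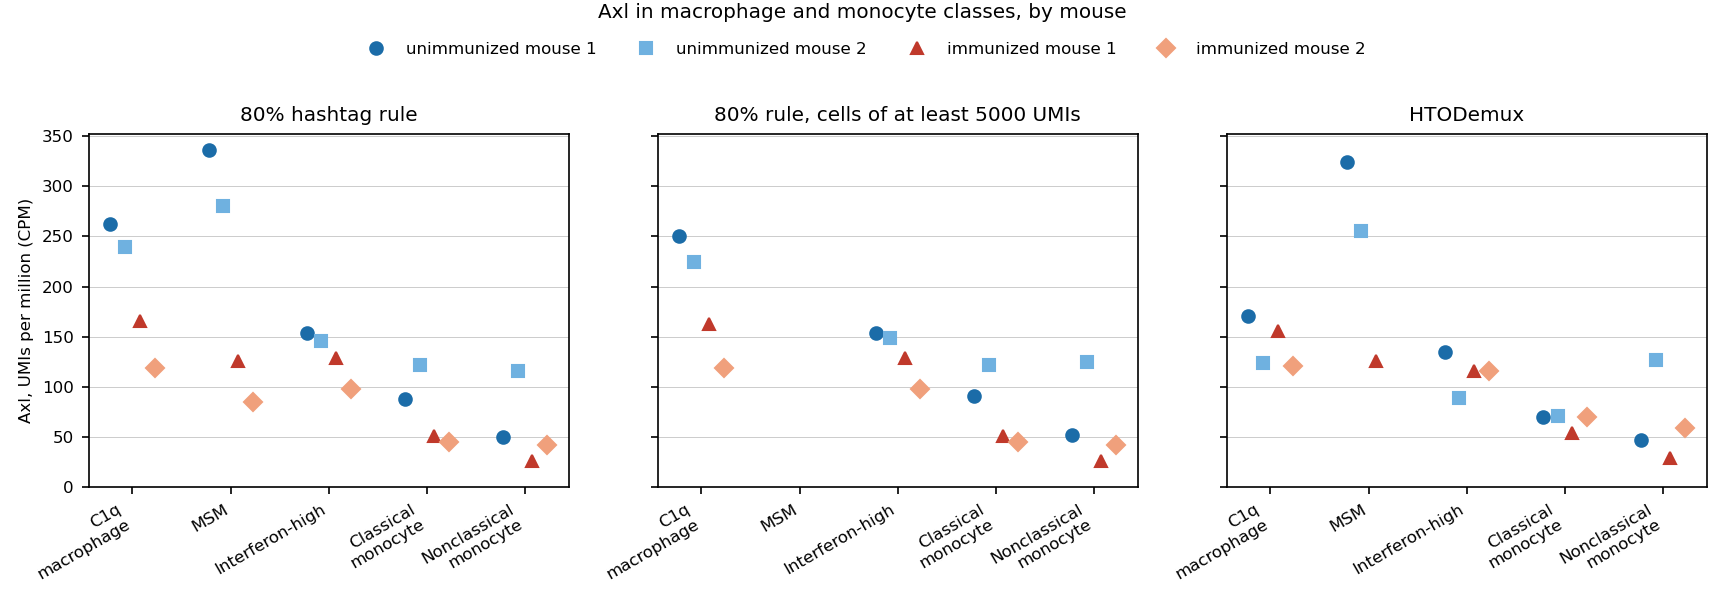
CPM of Axl (vertical axis) in 5 macrophage and monocyte classes, 1 point per mouse, blue for unimmunized and red or orange for immunized mice, under the 80% hashtag rule (left), the same rule in cells of at least 5000 UMIs (middle; no MSM-like library reaches 10 cells in both conditions) and HTODemux (right). Blue points lie above red ones in every class on the left, and only in MSM-like cells on the right, where 1 immunized library is left.

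In plain CPM, Gas6 was lower in both immunized mice in 2 macrophage classes, in the few UMIs given above. These were C1q macrophage-like cells (0.6 and 0.3 against 3.3 and 3.5 CPM, as for 22.6% of all genes; log2 difference -2.70, SE 1.33, edgeR adjusted p = 0.527) and MSM-like cells (16.3 and 0 against 27.5 and 56.1 CPM, as for 15.5% of all genes; -1.10, SE 1.16, edgeR adjusted p = 0.912). Averaged over classes, limma-voom called Gas6 lower (-1.54, SE 0.44, adjusted p = 0.0281), with the limit on Gas6 in that fit given above. The edgeR fit gave no usable average for Gas6 (SE 3578), so neither fit decides the question. Mertk in C1q macrophage-like cells differed by 0.39 (SE 0.63, edgeR adjusted p = 0.932), with the immunized values lying between the 2 unimmunized ones. In MSM-like cells Mertk was at 16.0 and 16.3 CPM in the first mouse of each condition and had no UMI in the second. Mertk in classical and interferon-high cells was higher in both immunized mice, as 17.9% of all genes were in each of these classes, against a side with no UMI. Pros1 in C1q macrophage-like cells was lower in both immunized mice, at 10.2 and 6.0 against 20.1 and 13.9 CPM, as 22.6% of all genes were, without passing the test (edgeR adjusted p = 0.629).

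The pathway around the receptors was read from lists of other genes. The list counts below stand beside these shares of all genes called: 0.219% for TBM-like cells and 8.14% between C1q macrophages and monocytes. Against C1q macrophages the shares were 22.2% in dendritic (13.3% as lower), 34.8% in lymphoid (24.0% as lower) and 23.0% in MSM-like cells. Of 17 other phosphatidylserine receptors and bridging proteins, 16 were tested. In TBM-like cells 1 of the 16 rose, Itgb5, the integrin beta 5 chain (log2 difference 1.53, SE 0.29, adjusted p = 0.0063 by edgeR, Benjamini-Hochberg). Against monocytes, 0 rose and 3 were lower in C1q macrophages, among them Itgb3, the integrin beta 3 chain (-2.14), and Lrp1, a scavenger receptor (-0.97). The median of the list was -0.34 there, beside -0.0034 for all genes.

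In dendritic cells, 1 of these 16 was higher and 7 lower than in C1q macrophages. Mfge8, a secreted phosphatidylserine bridge, was higher by 2.42, while Itgb5 (-4.25) and the receptor gene Cd300lb (-2.53) were lower. Lymphoid cells had 1 higher, again Mfge8 (1.53), and 10 lower, led by Cd300lb (-5.69) and Cd300a (-5.46). MSM-like cells had 1 higher, Stab2, the stabilin-2 scavenger receptor (4.31), and 8 lower, led by Itgb5 (-3.73) and Havcr2, which encodes TIM-3 (-3.07). The 6 MSM-like gate markers include Timd4, which encodes TIM-4, and each was at least 107 times as high there as in other cells. Neither Timd4 nor Stab1, a TBM-like gate gene, is among the genes counted as higher. The counts therefore do not cover the receptors used as gates.

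The 3 genes of vitamin K-dependent carboxylation, which the Gla domains of both ligands need, were tested. Against C1q macrophages 2 were called in dendritic and 1 in lymphoid cells, and 1 was called between C1q macrophages and monocytes. Vkorc1, a vitamin K epoxide reductase, was higher in C1q macrophages than in monocytes by 0.77 and lower in dendritic (-0.89) and lymphoid cells (-0.72), and Vkorc1l1 was higher in dendritic cells (1.48). Of 16 tested signalling and shedding genes, 1 was higher in C1q macrophages than in monocytes, Src, a tyrosine kinase (1.63). Dendritic cells had 2 higher, Ptk2, focal adhesion kinase (2.19), and Pik3r1, a PI3-kinase subunit (0.51), and 7 lower, led by Socs3, a cytokine signalling inhibitor (-2.0), and Dock1, a Rac activator (-1.87). Lymphoid cells had 1 higher, Pik3r1 (0.69), and 10 lower, led by Dock1 (-4.16) and Ifnar1, an interferon receptor chain (-2.46). In MSM-like cells Src was higher (2.13) and 4 were lower, led by Ifnar1 (-3.05) and Adam17, the sheddase (-2.44).

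Of 7 nuclear receptors linked to the response to engulfed cells, Nr1h3, which encodes LXR alpha, was higher in C1q macrophages than in monocytes (1.26, SE 0.19, adjusted p = 1.05e-05 by edgeR, Benjamini-Hochberg). It was lower in dendritic (-2.63) and lymphoid cells (-2.42), as was Pparg, a lipid-sensing receptor (-2.56 and -5.21). Dendritic cells had 3 of the 7 lower, and lymphoid cells 2 lower and 1 higher, Nr3c1, the glucocorticoid receptor (0.42). MSM-like cells had Rxra, a partner of other nuclear receptors (3.04), and Nr1h3 (1.36) higher.

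With immunization, 2 of the 42 other list genes tested were called in interferon-high cells, beside 1.22% of all genes. Averaged over classes 5 of the 42 were called, beside 6.65% of all genes. With only 4 members tested, their 0 calls make no contrast with these counts. In the average over classes, Mertk and Gas6 had no usable edgeR estimate (SE 3731 and 3578). In interferon-high cells Itgb3 was lower by 3.64 on the log2 scale (log2 difference -3.64, edgeR adjusted p = 0.0132) and Socs3 higher (2.23, edgeR adjusted p = 0.0210). Averaged over classes, Socs3 (2.23) and Cd300lf, a phosphatidylserine receptor gene (0.78), were among those higher. Havcr1, which encodes TIM-1 (-1.65), and Rxra (-0.95) were lower. The averaged test treats the classes of a mouse as independent libraries, though each condition had only 2 mice. No mouse block was possible for it, so the averaged calls are descriptions of these mice. Between interferon-high and classical cells 0 of the 42 other list genes tested were called by the edgeR test, and 5 had an unadjusted p under 0.05.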

How the data were processed

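Single-cell RNA and hashtag libraries of 2 droplet captures were used (antibody counts were not, since none was to a member), each capture holding cells of all 4 mice. The authors aligned reads to mm10 and counted UMIs per gene with Cell Ranger 4.0.0, per the labels and the study's methods, and deposited raw counts of RNA and of hashtags. The sources used here do not state whether depth was equalized between captures. Here, 621 barcode sequences present in both captures were left out, and cells were kept with at least 10 hashtag counts, 80% of them from 1 hashtag, and at most 25% mitochondrial UMIs. A class needed a mean marker score of at least 0.4, a lead of 0.15 over the next class and 3 markers with a UMI. Counts were summed per mouse and class (at least 10 cells) into 50 libraries of 23446 to 20692240 UMIs. These were fitted together with edgeR 4.0.16 (quasi-likelihood, TMM, filterByExpr, class by condition means, 10935 genes, residual df 23), which treats classes of 1 mouse as independent. Since a hashtag ties them to the same animal, the mouse was also fitted as a fixed block in the class comparisons. P-values were Benjamini-Hochberg adjusted over all genes, with a threshold of 0.05. The floor for a count of 0 was 3 counts. On simulated counts, 51% of 200 genes changed by a log2 fold of 1 were called between C1q macrophages and monocytes, with 10 unchanged genes called. In the mean over classes 70% were called, with 14 unchanged genes called. The simulated libraries had no mouse effect, so these shares do not measure recovery with 2 mice against 2. Likely doublets (Scrublet, scanpy 1.11.5) were kept and removed as an alternative. Other alternatives were RLE scaling, DESeq2 1.42.0, no count filter, mouse as a block, each mouse left out, HTODemux (Seurat 5.3.0), stricter gates, 20 cells per library, 10% mitochondrial UMIs, each capture, and immunized mice only. Limma-voom (limma 3.58.1) with a random mouse effect and cells of at least 5000 UMIs were added after seeing the data. In the limma-voom fit the consensus correlation of libraries within a mouse was 0.0563. The members and gene lists were chosen with earlier results of these data known. Named genes were the 5 members, up to 2 rising and 2 falling genes per list, and the 5 genes most like each member detected in most libraries. A list gene that the rule names is not reported here.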

Additional observations from a re-analysis of the deposited data

Results flagged for a closer look

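Axl in migratory DC-like cells ran against the other classes. It was higher in both immunized mice, at 10.3 and 9.4 CPM (14 and 7 UMIs), than in both unimmunized mice, at 3.7 and 7.4 CPM (3 and 1 UMIs), as were 21.0% of all genes in this class. The fitted log2 difference was 1.24 (SE 1.02, adjusted p = 0.898 by edgeR's quasi-likelihood test). In C1q macrophage-like, classical, interferon-high, MSM-like, NK-like and nonclassical cells both immunized mice were lower. The difference between these classes and migratory DC-like cells was not tested, and with likely doublets removed the migratory DC-like groups overlapped (6.09 to 7.45 against 3.89 to 7.87 CPM).

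Mertk was at 53.5 CPM (60 UMIs in 70 cells) in the inflammatory macrophage-like cells of immunized mouse 2, a library that enters no comparison because the other mice had 0 to 2 such cells. A UMI of Mertk was found in 35.7% of these cells, at a median depth of 16023 UMIs, and in 18.4% of the same mouse's C1q macrophage-like cells, at 14895.5 UMIs. In alpha-beta T-like cells of that mouse it was 1.35%, at 6555.5 UMIs.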

How the results depend on the processing

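Single mice and low counts set the limits here. Leaving out a mouse leaves 1 sample in an arm, which is then assumed to vary like the rest. For the immunization comparisons no paired analysis was possible because the mice are nested in the condition; with the mouse as a replicate block in the class comparisons, the number of members called changed only between interferon-high and classical cells. The causes of the changes below were not tested.

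The number of members called in TBM-like cells (1) was 0 with DESeq2, HTODemux, stricter gates, either capture alone, cells of at least 5000 UMIs, 20 cells per library and immunized mice only, and 0 to 1 with a mouse left out. For C1q macrophages against monocytes (3) it was 1 to 3 with a mouse left out, the lowest without unimmunized mouse 1. For dendritic cells (4) it was 2 with capture 2 only and 2 to 4 with a mouse left out, and for lymphoid cells (4) it was 2 with immunized mice only and 2 to 4 with a mouse left out. For MSM-like cells (1) it was 0 with DESeq2, either capture alone and immunized mice only, 2 with HTODemux and with 20 cells, and 0 to 1 with a mouse left out. For interferon-high against classical cells (0) it was 1 with RLE scaling, no count filter, the replicate block, stricter gates, the 10% mitochondrial limit and doublets removed, and 0 to 1 with a mouse left out. For immunization, per class (0) and averaged (0), it was 1 with limma-voom, and per class 0 to 1 with a mouse left out.

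Directions turned as follows, on the log2 scale. Axl was -0.046 in TBM-like cells with capture 2 only. In MSM-like cells Axl was 0.27 with HTODemux, 0.41 with capture 1 only and 0.019 with 20 cells. In MSM-like cells with a mouse left out, Gas6 ran from -0.16 to 3.07 and Pros1 from -2.92 to 1.13. Pros1 between C1q macrophages and monocytes was -0.066 with HTODemux and -0.018 in immunized mice only. For immunization, Mertk in C1q macrophage-like cells was -0.047 with HTODemux and -0.074 with capture 1 only, and ran from -0.21 to 0.79 with a mouse left out. Axl was 0.042 in C1q macrophage-like and 0.068 in interferon-high cells with HTODemux, 0.38 in interferon-high and -2.08 in migratory DC-like cells with capture 2 only, and averaged over classes 0.74 with capture 1 only and 0.50 in cells of at least 5000 UMIs, with a range of -0.81 to 0.033 with a mouse left out. The Axl interaction ran from -0.20 to 0.77 with a mouse left out.

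Shares of cells with a UMI moved with thinning, to 1000 UMIs and to none. In C1q macrophage-like cells of the immunized mice Axl went from 23.5% to 13.6% and 63.9%, and in unimmunized mice from 40.0% to 23.6% and 56.5%. Mertk went from 4.41% to 2.12% and 16.7% in the immunized mice and to 10.4% without thinning in the unimmunized mice. Axl in classical cells went to 4.14% and 31.3% in the immunized and to 3.57% and 42.1% in the unimmunized mice. Mertk in MSM-like cells was 21.2 CPM with stricter gates, beside 16.2 in the same mice.

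Counts of all genes called ranged over the alternatives from 5 to 87 for TBM-like cells (24), 81 to 1171 for monocytes (890), 1383 to 2758 for dendritic (2425), 2511 to 4951 for lymphoid (3810) and 658 to 3380 for MSM-like cells (2513). They ranged from 44 to 352 for interferon-high cells (198), 208 to 866 for immunization averaged over classes (727), 2 to 557 in C1q macrophage-like (42), 1 to 358 in classical (65) and 0 to 378 in interferon-high cells (133).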
